A study of Mus musculus with 6 samples.

Results

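The Frizzled and low-density lipoprotein receptor-related genes examined here encode the cell surface receptors for Wnt proteins: Fzd1 to Fzd8, Lrp5 and Lrp6. The members were all probe sets that the platform annotation maps to exactly 1 of these 10 gene symbols. There were 26 such probe sets for the 10 genes, out of 45037 tested probe sets that named 18193 genes. They were measured in mouse ocular lenses at embryonic day 19.5, in 3 Notch2 mutant embryos and in 3 wild type littermate controls, with 1 array per embryo and the pair of lenses of an embryo pooled. In the mutants Notch2, a Notch receptor, was ablated conditionally in the lens, while controls had no such ablation. All 6 embryos shared a mixed background of C57BL/6 and FVB/N. Which promoter drove the recombination and which part of Notch2 was removed are not given in the sources used here.

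Wnt ligands bind the cysteine-rich domain of a Frizzled protein, a receptor that spans the membrane repeatedly. When Lrp5 or Lrp6 joins as coreceptor, the complex stabilises beta-catenin, which then acts with TCF and LEF factors on target genes. Frizzled proteins also pass signals without Lrp coreceptors, through Dishevelled to the cytoskeleton, in planar cell polarity. In the eye, Wnt signalling takes part in patterning the optic cup, in the lens epithelium, in the ordering of lens fibres and in the growth of retinal vessels.

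The deposited values were centred so that every probe set has its median at 0, and 0 marks the middle of the arrays and not an absence of transcript. The values therefore give differences between arrays on the log2 scale, and levels of different genes could not be set side by side. For the same reason neither the presence of lens transcripts nor the absence of other tissue could be read from a level. A change below is the mutant mean minus the wild type mean on that scale, given with a standard error (SE), a 95% interval and limma's Benjamini-Hochberg adjusted p over all probe sets, with 3 arrays in each group. A probe set passed where that adjusted p lay below 0.05. Spread over all probe sets differed between arrays, with standard deviations from 0.223 in wild type 2 to 0.384 in wild type 3. Mutant 2 had the largest of the mutants, at 0.332. The 2 Notch2 probe sets did not pass, at 0.49 (SE 0.45) and -0.42 (SE 0.21), and both groups overlapped in each, so they did not check the genotypes. Fewer cells of a type and less RNA per cell cannot be told apart in such whole lenses.

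Of the 26 receptor probe sets, 1 rose in mutant lenses and 0 fell in limma. Another 7 had an unadjusted p below 0.05, 3 higher and 4 lower in mutants. Over all probe sets 0.293% were called higher and 0.175% lower. The probe set that rose belonged to Fzd5. In 8 of the 26 the mutant and wild type values did not overlap, 4 of them higher and 4 lower in mutants, or 30.8%. Over all probe sets the groups did not overlap in 17.8%, with 8.73% higher and 9.1% lower. An unadjusted p below 0.05 was found in 8 of the 26, and in 11.6% of all probe sets. Probe sets of 1 gene are not independent, and no test was made of these shares. The median change of the 26 was -0.10, beside -0.018 over all probe sets, and their median size regardless of direction was 0.21 beside 0.17.

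Fzd5, a Frizzled known from the developing neural retina, was higher in every mutant lens by its probe set 1455604_at. That probe set read -0.91, -0.47 and -1.10 in the 3 controls, in replicate order, while mutants 1, 2 and 3 read 0.55, 0.64 and 0.47. All mutant arrays lay above all wild type arrays, wild type 2 was nearest to them, and the mutants were close together. The mean was -0.83 ± 0.32 for controls and 0.55 ± 0.09 for mutants (SD, n = 3), a 2.60-fold rise. The change was 1.38 (SE 0.19, interval 0.96 to 1.81, limma adjusted p = 0.0358). The other Fzd5 probe set, 1422937_at, did not show it. It read 0.015, -0.015 and 0.096 in the controls and 0.30, -0.22 and -0.32 in mutants, so that the mutant arrays lay on both sides of the wild type. Its change was -0.11 (SE 0.19, interval -0.54 to 0.31, limma adjusted p = 0.878), and the intervals of the pair of probe sets did not overlap. The annotation gives a RefSeq transcript as the source of 1422937_at and another sequence entry as that of 1455604_at, and which transcripts each detects was not tested. Without wild type 1 the change at 1455604_at was 1.34, without wild type 3 it was 1.24, and without mutant 1, 2 or 3 it was 1.38, 1.34 or 1.42. In these 5 fits it no longer passed, with limma adjusted p from 0.0632 to 0.182, and it passed without wild type 2 (1.56, limma adjusted p = 0.0248).

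**Figure D1:**
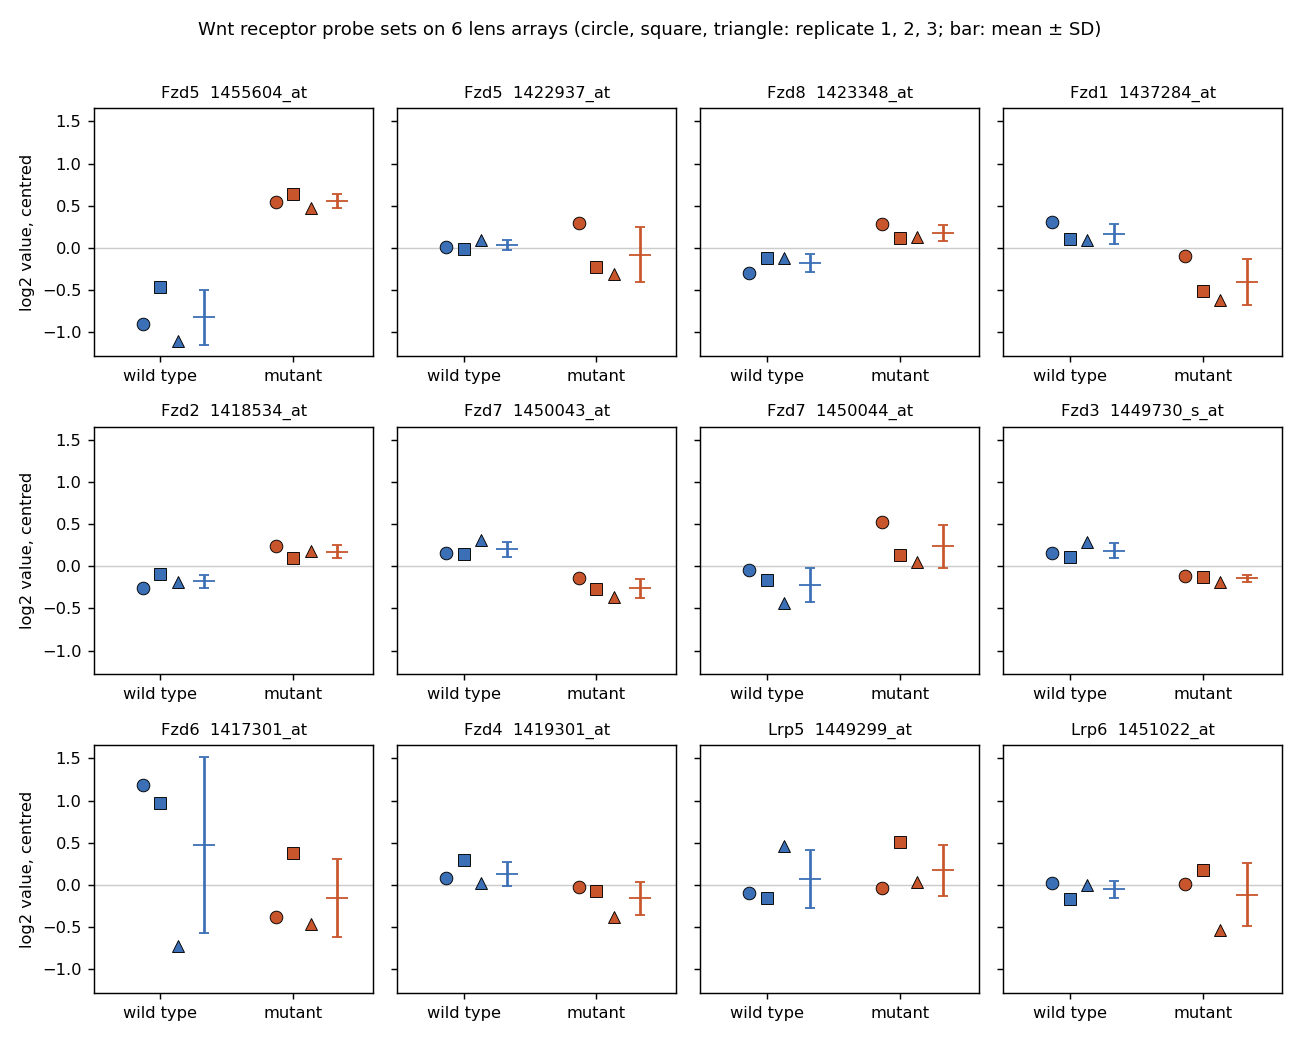
Centred log2 values (vertical axis) of 12 receptor probe sets in wild type (blue) and mutant (orange) lenses, 1 panel per probe set; circle, square and triangle are replicates 1, 2 and 3, and the bar is the mean ± SD of 3 arrays. Fzd5 1455604_at shows the widest gap between the groups, while Fzd7 has 1 probe set lower and 1 higher in mutants.

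Transcripts of retinal neurons and progenitors were also higher in mutant lenses. Of the 22 genes measured in a retinal marker list, 11 had a probe set that rose and 0 had one that fell. Over all 18193 genes, 108 had one called higher and 58 had one called lower. The marker lists were chosen with earlier results of these data known, so these counts are a description. The retinal list's mean over genes was -0.71, -0.34 and -0.86 in the controls, while mutants 1, 2 and 3 stood at 0.52, 0.84 and 0.33. As for Fzd5 1455604_at, wild type 3 was lowest, wild type 2 was the highest of the controls and mutant 2 was the highest of all. Over all probe sets wild type 3 and mutant 2 also had the widest spread of their groups, and wild type 2 the smallest. Whether the order is particular to these genes was not tested. Among 12 macrophage markers none passed in limma, with 12 of their 18 probe sets at an unadjusted p below 0.05, and their mean stood at -0.80, 0.025 and -1.004 in the controls and 0.0097, 0.30 and 0.54 in mutants. Of the lens markers, 2 of 14 fibre genes and 2 of 8 epithelial genes had a probe set that fell and 0 had one that rose in limma. At an unadjusted p below 0.05, 11 of 23 fibre probe sets were lower and 0 higher, while 12 of 25 epithelial probe sets were lower and 4 higher. Of those 12, 5 were of Sfrp1, which is also among the Wnt antagonists below. Over all probe sets 11.6% had such a p in either direction. The mean of the 14 fibre genes was 0.31, 0.20 and 0.21 in the controls and -0.15, -0.28 and -0.22 in mutants, and that of the 8 epithelial genes was 0.44, 0.29 and 0.24 against -0.25, -0.53 and -0.36. The part of these cell types in the Fzd5 difference was not tested.

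**Figure D2:**
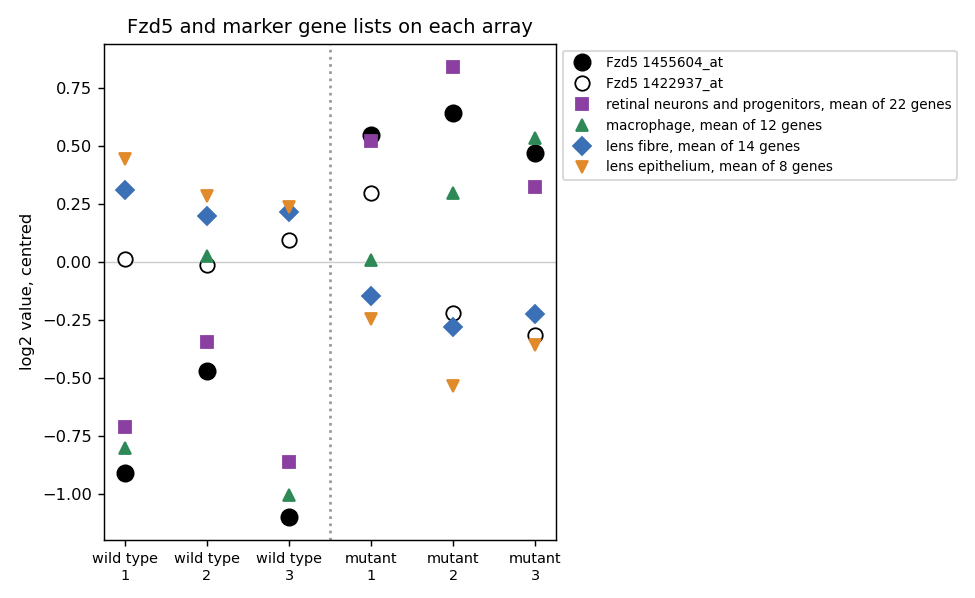
Centred log2 values on each of the 6 arrays (horizontal axis) for both Fzd5 probe sets and for the mean over the genes of 4 marker lists. Fzd5 1455604_at and the retinal list lie below 0 on all wild type arrays and above 0 on all mutant arrays. The lens fibre and epithelium lists lie the opposite way. For a single probe set centred on its median, groups that do not overlap always split at 0.

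By root mean square difference over the 6 centred values, the named genes nearest to Fzd5 1455604_at were Atoh7 (0.070), Camk2n1 (0.095), Plxnc1 (0.098), St8sia4 (0.11), Gpr37 (0.11) and Sox11 (0.12). Atoh7 encodes a transcription factor that specifies retinal ganglion cells and belongs to the retinal list, while Sox11 encodes a transcription factor of immature neurons. Atoh7 read -0.96, -0.54 and -1.10 in the controls and 0.68, 0.61 and 0.54 in mutants. These genes were picked for their likeness to Fzd5, so their changes, from 1.18 to 1.48, are a description.

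The RefSeq promoter table of build GRCm38.p6 held 4 of the 10 genes, Fzd1, Fzd4, Fzd5 and Fzd7. The 250 bases before the annotated start are shown for Fzd5, the gene with the probe set that passed, for Fzd1, whose mutant values lay below the controls in 1 probe set, and for Fzd7, whose probe sets differed in opposite directions. They lie on the minus strand at chr1:64737751-64738000 for Fzd5, on the minus strand at chr5:4758217-4758466 for Fzd1 and on the plus strand at chr1:59481897-59482146 for Fzd7, each written 5′ to 3′ along its gene. Capitals mark the GC box GGGCGG and the TCF/LEF core CTTTGA on either strand.
Fzd5: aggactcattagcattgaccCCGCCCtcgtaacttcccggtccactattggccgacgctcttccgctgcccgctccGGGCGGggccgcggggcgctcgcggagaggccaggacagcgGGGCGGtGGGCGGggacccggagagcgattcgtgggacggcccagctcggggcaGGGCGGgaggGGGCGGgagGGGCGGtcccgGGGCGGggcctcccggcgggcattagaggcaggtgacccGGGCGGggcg
Fzd1: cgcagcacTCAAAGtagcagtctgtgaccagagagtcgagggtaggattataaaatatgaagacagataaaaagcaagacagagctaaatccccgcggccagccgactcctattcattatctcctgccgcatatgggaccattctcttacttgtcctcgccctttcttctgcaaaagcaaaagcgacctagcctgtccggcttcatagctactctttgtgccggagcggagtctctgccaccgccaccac
Fzd7: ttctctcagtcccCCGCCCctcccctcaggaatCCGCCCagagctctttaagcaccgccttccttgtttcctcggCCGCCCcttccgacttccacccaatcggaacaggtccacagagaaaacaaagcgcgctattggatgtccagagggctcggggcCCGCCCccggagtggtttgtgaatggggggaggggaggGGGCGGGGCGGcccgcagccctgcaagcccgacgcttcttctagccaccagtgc
The Fzd5 stretch was 76.4% G and C, that of Fzd7 65.2% and that of Fzd1 51.2%, beside a median of 52.4% over all 32851 promoters of the table. Counting overlapping matches on both strands, the GC box stood 9 times before Fzd5, 6 times before Fzd7 and 7 times before Fzd4. It stood 0 times before Fzd1. At least 1 match was held by 3 of the 4 genes, against 32.7% of all promoters. The number of matches per promoter was not set against all promoters. The TCF/LEF core stood once before Fzd1 and before none of the others, against 13.8% of all promoters. The core TGGGAA bound by RBPJ, the DNA-binding partner of activated Notch receptors, stood before none of the 4, against 21.6% of all promoters. A CCAAT box (CCAAT) stood before Fzd4, Fzd5 and Fzd7, against 33.8% of all promoters. These matches describe letters in 1 window and no binding.

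Fzd8, the closest relative of Fzd5 among the Frizzled genes, had probe sets that differed by less and did not pass. Probe set 1423348_at read -0.30, -0.12 and -0.13 in the controls and 0.29, 0.12 and 0.13 in mutants. The groups did not overlap, with mutants higher by 0.36 (SE 0.15, interval 0.03 to 0.70, limma adjusted p = 0.388). The second, 1445815_at, had a mutant array at 0.64 and others at -0.35 and -0.47, while wild type stayed between -0.035 and 0.081. Its change of -0.088 had an interval from -0.70 to 0.53.

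Fzd1, Fzd2 and Fzd7 form 1 subfamily of Frizzled receptors that act in beta-catenin signalling, and none of their 7 probe sets passed. Fzd1 read lower in mutants by 1437284_at, with 0.30, 0.10 and 0.094 in the controls and -0.094, -0.51 and -0.61 in mutants. The groups did not overlap, mutants 2 and 3 were the lowest, and the change was -0.57 (SE 0.18, interval -0.98 to -0.17, limma adjusted p = 0.236). The other Fzd1 probe set, 1422985_at, had the same sign at -0.18 (interval -0.56 to 0.21). Fzd2 differed upward in all 3 of its probe sets, by 0.09 to 0.35. The one whose groups did not overlap, 1418534_at, read -0.26, -0.095 and -0.19 in the controls and 0.24, 0.095 and 0.19 in mutants, with a change of 0.35 (SE 0.14, interval 0.03 to 0.68, limma adjusted p = 0.383).

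Fzd7 gave opposite readings. Probe set 1450043_at read 0.16, 0.14 and 0.31 in the controls and -0.14, -0.27 and -0.36 in mutants, with a change of -0.46 (SE 0.15, interval -0.80 to -0.13, limma adjusted p = 0.248). Probe set 1450044_at read -0.049, -0.16 and -0.44 in the controls and 0.52, 0.14 and 0.049 in mutants, with a change of 0.45 (SE 0.19, interval 0.03 to 0.87, limma adjusted p = 0.385). In neither did the groups overlap, and the intervals lay on opposite sides of 0. The annotation gives the same RefSeq transcript as the source of both, so no direction is given for Fzd7 as a gene.

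**Figure D3:**
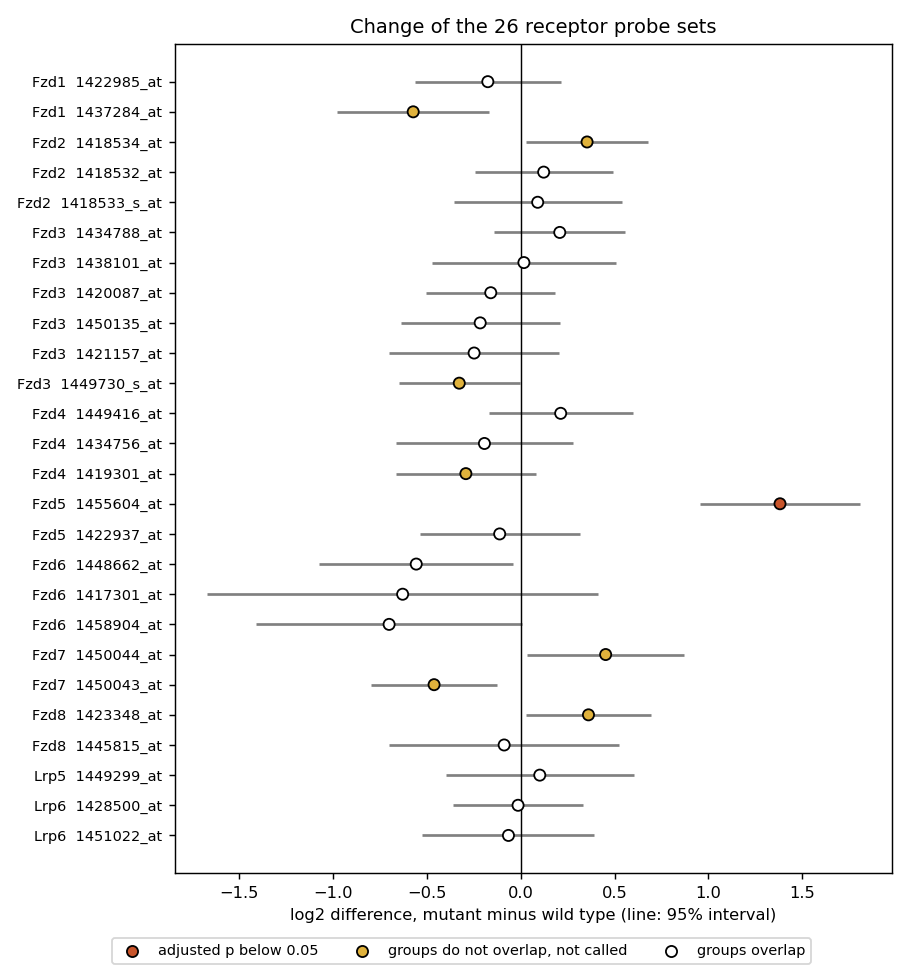
Log2 difference, mutant minus wild type (horizontal axis), of each of the 26 receptor probe sets with its 95% interval; filled points are probe sets whose groups did not overlap, and the red point is the probe set that passed. Fzd5 1455604_at at 1.38 stands apart from the other 25, which lie between -0.70 and 0.45.

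Fzd3 and Fzd6 are known for planar cell polarity, Fzd3 in the guidance of axons and Fzd6 in the patterning of hair. None of the 6 Fzd3 probe sets passed, 4 were negative and 2 positive, and their changes ran from -0.33 to 0.21. Probe set 1449730_s_at, of a kind that can share probes with other transcripts, read 0.16, 0.11 and 0.29 in the controls and -0.11, -0.12 and -0.19 in mutants. There the groups did not overlap and the change was -0.33 (SE 0.14, limma adjusted p = 0.425). Fzd6 was negative in all 3 of its probe sets, at -0.56, -0.63 and -0.70, with limma adjusted p from 0.390 to 0.678. The one with the largest spread, 1417301_at, read 1.18, 0.97 and -0.73 in the controls and -0.38, 0.38 and -0.46 in mutants. Wild type 3 was the lowest of all its arrays, and the interval reached from -1.67 to 0.41. Probe set 1458904_at read 0.28, -0.12 and 0.68 in the controls and -0.28, -1.10 and 0.12 in the mutants, so there wild type 3 was the highest. In both the groups overlapped. The size of the changes at 1417301_at and 1458904_at rested on single arrays. At 1417301_at the change was -0.27, -0.38 or -1.23 without wild type 1, 2 or 3 and -1.14 with array weights. At 1458904_at it was -0.36 without mutant 2 and -0.97 without mutant 3. The third, 1448662_at, had a change of -0.56 (SE 0.23, interval -1.07 to -0.04, limma adjusted p = 0.390), and its groups also overlapped. It moved less, from -0.75 to -0.39 with an array left out.

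Fzd4, the receptor of Norrin in the growth of retinal vessels, did not pass in any of its 3 probe sets, which ran from -0.29 to 0.21. Probe set 1419301_at read 0.079, 0.29 and 0.026 in the controls and -0.026, -0.071 and -0.38 in mutants. The groups just failed to overlap, and the change was -0.29 (SE 0.17, interval -0.67 to 0.08, limma adjusted p = 0.572). Of 10 endothelial markers none passed in limma, with 0 probe sets at an unadjusted p below 0.05.

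The coreceptor genes showed no difference beyond their spread. Lrp5, which pairs with Fzd4 for Norrin, had 1 probe set, at -0.093, -0.16 and 0.46 in the controls and -0.038, 0.51 and 0.038 in mutants. Its change was 0.10 (SE 0.22, interval -0.40 to 0.60, limma adjusted p = 0.912). Lrp6, the other coreceptor for canonical Wnt ligands, read 0.019, -0.17 and -0.0053 in the controls and 0.0053, 0.18 and -0.54 in mutants by 1451022_at. Mutant 3 was lowest and mutant 2 highest, and the change was -0.065 (SE 0.20, interval -0.52 to 0.39, limma adjusted p = 0.942). The second Lrp6 probe set was at -0.014 (SE 0.15, interval -0.36 to 0.33, limma adjusted p = 0.985). These intervals leave room for changes of 0.33 or more on the log2 scale in either direction.

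Around the receptors, 2 of 120 measured genes in the lists of the Wnt pathway and of related lipoprotein receptors passed, 1 in each direction. Over all 18193 genes, 108 had a probe set called higher and 58 had one called lower. The secreted antagonist Sfrp2, whose cysteine-rich domain resembles that of the Frizzled proteins, rose. It read -1.002, -0.42 and -1.41 in the controls and 0.72, 0.68 and 0.42 in mutants, a change of 1.55 (SE 0.24, limma adjusted p = 0.0419). Wild type 3 was lowest and wild type 2 the highest control, as for Fzd5. These were also the arrays of widest and smallest spread over all probe sets. Among the mutants the order differed, with mutant 1 highest for Sfrp2 and mutant 2 highest for Fzd5. Of 15 antagonist genes Sfrp2 was the 1 that passed, and 0 fell in limma. The 5 antagonist probe sets with a negative change at an unadjusted p below 0.05 were all of Sfrp1, singled out after its values were seen. Sfrp1 is also in the lens epithelial list above. Of the 27 antagonist probe sets 7, or 25.9%, had such a p, beside 11.6% of all. Their changes ran from -1.43, at a probe set that did not pass, to 1.55 for Sfrp2. Daam2, a formin that links Dishevelled to the cytoskeleton, fell. By 1455717_s_at it read 0.99, 0.36 and 0.88 in the controls and -0.50, -0.76 and -0.36 in mutants, a change of -1.28 (SE 0.20, limma adjusted p = 0.0422), and its second probe set was also negative. Of 38 genes of intracellular transduction 0 rose in limma, although the largest positive change of their probe sets was 1.55. Of their 103 probe sets 11 had an unadjusted p below 0.05, 7 higher and 4 lower in mutants. That was 10.7%, beside 11.6% of all probe sets. Like Fzd5, neither Sfrp2 nor Daam2 kept its call when wild type 1 or 3 or any mutant array was left out. In those fits the changes ran from 1.32 to 1.64 for Sfrp2 and from -1.37 to -1.16 for Daam2. The limma adjusted p then ran from 0.0684 to 0.197 for Sfrp2 and from 0.0739 to 0.20 for Daam2.

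Among the 26 genes of Wnt ligands and their secretion none passed in limma, and 9 of 44 probe sets had an unadjusted p below 0.05, all 9 with a negative change. That was 20.5% of the list's probe sets, beside 11.6% of all. The smallest p values belonged to Wnt7b (-0.82, SE 0.18, limma adjusted p = 0.0866), Wnt7a (-0.55, SE 0.15, limma adjusted p = 0.166) and Rspo1 (-0.71, SE 0.20, limma adjusted p = 0.178). Wnt7b read 0.57, 0.19 and 0.63 in the controls and -0.19, -0.36 and -0.53 in mutants, without overlap. Its second probe set was at -0.74, also without overlap. The other Wnt7a probe sets were also negative, at -0.17 and -0.41, but their groups overlapped. The list's median change was -0.19, beside -0.018 over all probe sets.

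The 22 measured other receptors and surface regulators had no gene that passed in limma. An unadjusted p below 0.05 was found in 6 of 43 probe sets, or 14.0%, near the 11.6% of all probe sets. The groups did not overlap in 16.3%, beside 17.8% of all. The smallest p values belonged to cadherins of planar cell polarity. Celsr3 was at 0.89 (SE 0.18, limma adjusted p = 0.071), Celsr2 at -0.77 (SE 0.23, limma adjusted p = 0.221) and Celsr1 at -0.67 (SE 0.21, limma adjusted p = 0.227), and the groups did not overlap in any of the 3. The list's median change was -0.037.

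Of 10 measured feedback and target genes of the pathway none passed in limma. An unadjusted p below 0.05 was found in 11 of 23 probe sets, or 47.8%, beside 11.6% of all probe sets. Of the 11, 10 had a positive change. In 12 of the 23 the groups did not overlap, and Ccnd1, Cd44 and Nkd2 had 3 of these each, all higher in mutants. Probe sets of 1 gene are not independent. Cd44, an adhesion receptor, was at 1.17 (SE 0.20, limma adjusted p = 0.0512), the G1 cyclin gene Ccnd1 at 1.10 (SE 0.22, limma adjusted p = 0.068) and Nkd2, a Dishevelled inhibitor, at 0.76 (SE 0.16, limma adjusted p = 0.0837). By 1448698_at Ccnd1 read -0.75, -0.27 and -0.80 in the controls and 0.33, 0.89 and 0.27 in mutants. As in the mean of the retinal list, which was higher in mutants by 1.20, wild type 3 was lowest, wild type 2 was the highest control and mutant 2 was the highest of all. Wild type 3 and mutant 2 also had the widest spread of their groups over all probe sets, and wild type 2 the smallest. The part of retinal transcripts in the differences of these target genes was not tested. The median change of the target list was 0.21.

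**Figure D4:**
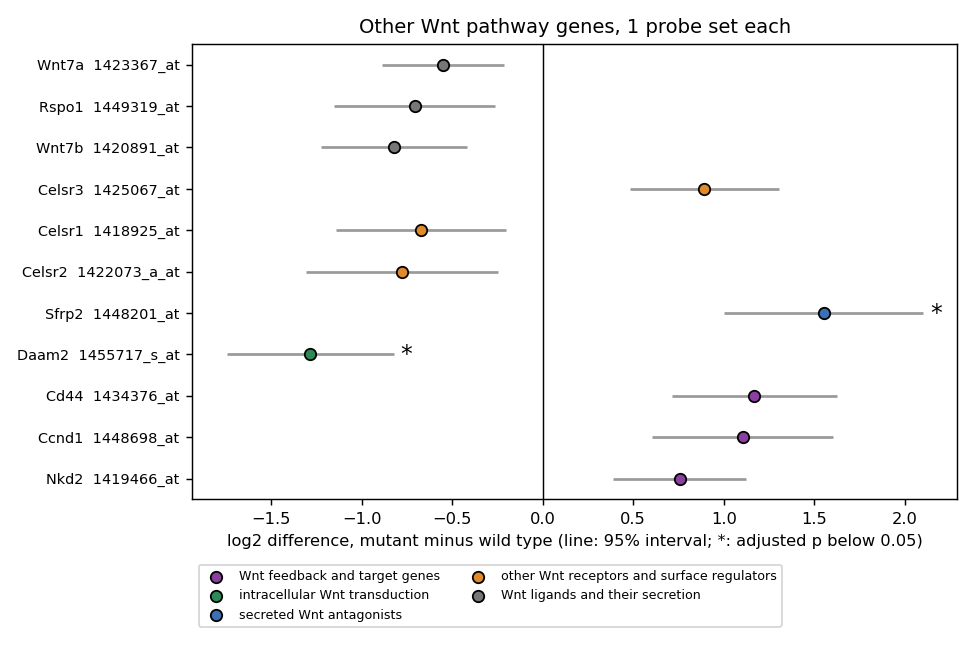
Log2 difference, mutant minus wild type (horizontal axis), with its 95% interval for 11 other Wnt pathway genes, each by its probe set with the smallest p and coloured by list; asterisks mark an adjusted p below 0.05. Sfrp2 at 1.55 and Daam2 at -1.28 carry asterisks, the 3 ligand genes lie below 0 and the 3 target genes above 0.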

How the data were processed

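RNA of 6 mouse lens samples, 3 wild type and 3 Notch2 mutant, was measured on oligonucleotide arrays with biotin label. The values deposited by the authors are log2 values. RMA, which corrects background, normalizes by quantiles and gives 1 value per probe set, is named in the submitters' processing notes without a version. The base is inferred from what RMA usually writes and from the range. Each probe set had been centred to a median of 0 (within 5e-07), a step no source describes. Filters on dim probe sets and checks of levels need uncentred values and were not made.

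After 64 control probe sets were left out, limma 3.58.1 in R 4.3.3 (lmFit, eBayes, no covariate) was fitted to 45037 probe sets, with Benjamini-Hochberg adjustment and a threshold of 0.05. The platform annotation gave 34945 of them 1 gene symbol, 932 several and 9160 none. All 26 receptor probe sets matched the RefSeq table by Entrez identifier and symbol. In arrays simulated from limma's prior for this comparison, with 45037 probe sets, 28 of 100 changed by 1 and 97 of 100 changed by 2 on the log2 scale were called, and 7 of 44837 unchanged ones. These rates describe simulated arrays, and whether they hold for the deposited arrays, whose spread differed, was not tested. The deposited arrays are biological replicates, per the labels, and their number limits the precision.

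Receptor members and gene lists were chosen with earlier results of these data known. Values are shown for every receptor probe set that passed or did not overlap between groups, and otherwise for the one of a gene with the largest standard deviation. Other receptor probe sets are given beside these, chosen after their values were seen. Of each other list, genes that passed are named, or else the 3 with the smallest p. The 6 genes nearest to Fzd5 were ranked by root mean square difference, with 1 gene symbol and without clones or predicted genes. Alternatives were a repeated quantile normalization, array medians subtracted, array weights, a robust variance, no _x_at and _s_at probe sets, 1 probe set per gene, a filter on spread, the replicate number as a block, and each array left out.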

Additional observations from a re-analysis of the deposited data

How the results depend on the processing

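The Fzd5 probe set 1455604_at passed, and no other receptor probe set did, under each of the 8 alternatives that kept all arrays. With 1 array left out, 0 to 1 receptor probe sets were called higher and 0 lower, and over all probe sets 7 to 155 were called. Over all probe sets the count of 211 became 584 after repeated quantile normalization, 889 with array weights and 738 among the more variable probe sets, where limma's variance prior gave every probe set the same SE. Counts of other listed pathway genes called higher, 1 as reported, were 8, 9 and 5 under these settings, 2 without _x_at and _s_at probe sets, and 0 to 2 with an array left out. Those called lower, 1 as reported, were 2, 5, 2 and 0, the last because the Daam2 probe set is of the kind removed, and 0 to 1 with an array left out. With array weights Fzd2 1418533_s_at read -0.047. Leaving out arrays turned the sign of small changes: Fzd2 1418533_s_at ran from -0.062 to 0.24, Fzd3 1438101_at from -0.16 to 0.19, Fzd5 1422937_at from -0.30 to 0.0062, Fzd8 1445815_at from -0.44 to 0.12, Lrp5 from -0.069 to 0.30, the Lrp6 probe sets from -0.085 to 0.060 and from -0.21 to 0.14, and Notch2 1451889_at from -0.020 to 1.00. Apart from the smaller number of arrays, the cause of these shifts was not tested. With the replicate number as a block, 530 probe sets, 6 higher and 2 lower pathway genes were called, and Fzd5 1455604_at kept its call. Same-numbered arrays did not deviate together throughout (correlations of 0.33, -0.14 and 0.26), so the numbers were not taken as pairs. Signal over background is unknown here.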

Other observations

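Relatives of Lrp5 and Lrp6 in the low-density lipoprotein receptor family included no gene that passed among 9 measured in limma. An unadjusted p below 0.05 was found in 9 of 23 probe sets, or 39.1%, beside 11.6% of all. Lrp2, or megalin, an endocytic receptor, was at 0.76 (SE 0.15, limma adjusted p = 0.0642). It read -0.27, -0.45 and -0.49 in the controls and 0.44, 0.27 and 0.36 in the mutants, and 1 of its 3 probe sets had the opposite sign. Vldlr, a receptor for very low density lipoprotein and for Reelin, was at -0.66 (SE 0.16, limma adjusted p = 0.118), and all 6 of its probe sets were negative. Lrp1b was at -0.51 (SE 0.15, limma adjusted p = 0.217), with 1 of its 3 probe sets positive.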
